A study of Mus musculus with 6 samples.

Results

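The Kruppel-like factors are transcription factors with a conserved DNA-binding domain of zinc fingers. The genes described here are Klf5 and 9 relatives, Klf3, Klf4, Klf6, Klf7, Klf9, Klf10, Klf11, Klf13 and Klf15, taken by name as 10 of the 53379 genes counted in the files. All 10 passed the filter on low counts. They were followed in 6 RNA sequencing libraries of intestinal stem cells, sorted for high Lgr5-EGFP fluorescence from crypts of the proximal small intestine of adult C57BL/6 mice. The 3 control libraries came from the genotype Lgr5-EGFP-IRES-CreERT2;Rosa-tdTomato, and the 3 libraries labelled Klf5-KO from the same genotype with Klf5fl/fl added. In both groups the tamoxifen-inducible Cre was expressed from the Lgr5 locus, with a tdTomato lineage reporter at Rosa, and both groups were given 1 mg of tamoxifen on each of 5 days, so the groups differ in the labels only by the floxed Klf5 alleles. The labels say neither how many mice there were, nor their exact ages, nor whether a library held 1 mouse or a pool. The p-values below therefore measure the spread between libraries, which may be partly technical.

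The family is commonly divided by the partners its proteins recruit. Klf4, Klf5, Klf6 and Klf7, with Klf1 and Klf2, are mainly activators. Klf3, with Klf8 and Klf12, binds the corepressor CtBP, and Klf9, Klf10, Klf11 and Klf13, with Klf14 and Klf16, bind the corepressor Sin3A. All recognise CACCC and GC-rich boxes. In the gut epithelium Klf5 is known from proliferating crypt cells and Klf4 from post-mitotic cells of the villus and from goblet cells, and the pair often act in opposite ways on the same promoters.

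The libraries held 61563625 to 77666540 counts. The stem cell genes Lgr5 (141 ± 19.2 CPM in the controls, SD, n = 3) and Ascl2, and the epithelial gene Epcam (1076 ± 26.8 CPM in the controls), were present, and the summed level of 12 immune, 8 endothelial and 11 mesenchymal marker genes was low in every library, at 7.72 to 24.5, 1.95 to 7.31 and 3.74 to 11.4 CPM. CPM is the read count scaled to the TMM-adjusted library size. No gene of these lists was at 0 in all libraries. Control replicate 3 stood apart from the other controls in its Paneth cell genes: 10 markers summed to 21352 CPM, against 1783 and 2266 CPM in control replicates 1 and 2 and 9902 to 12251 CPM in those labelled Klf5-KO. The summed level of 4 Y-linked genes was 158 CPM in control replicate 1 and 194 CPM in Klf5-KO replicate 3, and at most 0.058 CPM in the other libraries. Xist was at 3.52 and 2.20 CPM in control replicate 1 and Klf5-KO replicate 3, and at 1739 to 2600 CPM in the others. Each group thus held libraries of both sexes, and so of more than 1 mouse. In sorted cells taken in bulk, fewer cells of a type and less RNA per cell cannot be told apart.

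Of the 10 genes, 3 were called higher and 3 lower where the label was Klf5-KO, by edgeR's quasi-likelihood test over 19339 genes with a Benjamini-Hochberg adjusted p under 0.05. The higher genes were Klf5, Klf6 and Klf7, and the lower genes Klf3, Klf13 and Klf10. Over all genes tested, 25.8% were called, 13.3% higher and 12.5% lower. On mm10, Klf6 lies on chromosome 13 (5861482 to 5870394), Klf7 on chromosome 1 (64029447 to 64122282), Klf3 on chromosome 5 (64803388 to 64832901), Klf13 on chromosome 7 (63886351 to 63938915) and Klf10 on chromosome 15 (38291463 to 38300706), so that no 2 of the called genes share a chromosome. The groups of CPM values did not overlap for the same 6 members, against 43.2% of all genes. The median log2 fold change of the 10 was −0.13, beside −0.01 over all genes. The 3 members that rose, Klf5 itself among them, are all activators, and the 3 that fell are repressors of either class. The classes were applied after the values were seen. Klf4, Klf9, Klf11 and Klf15 were not called.

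**Figure D1:**
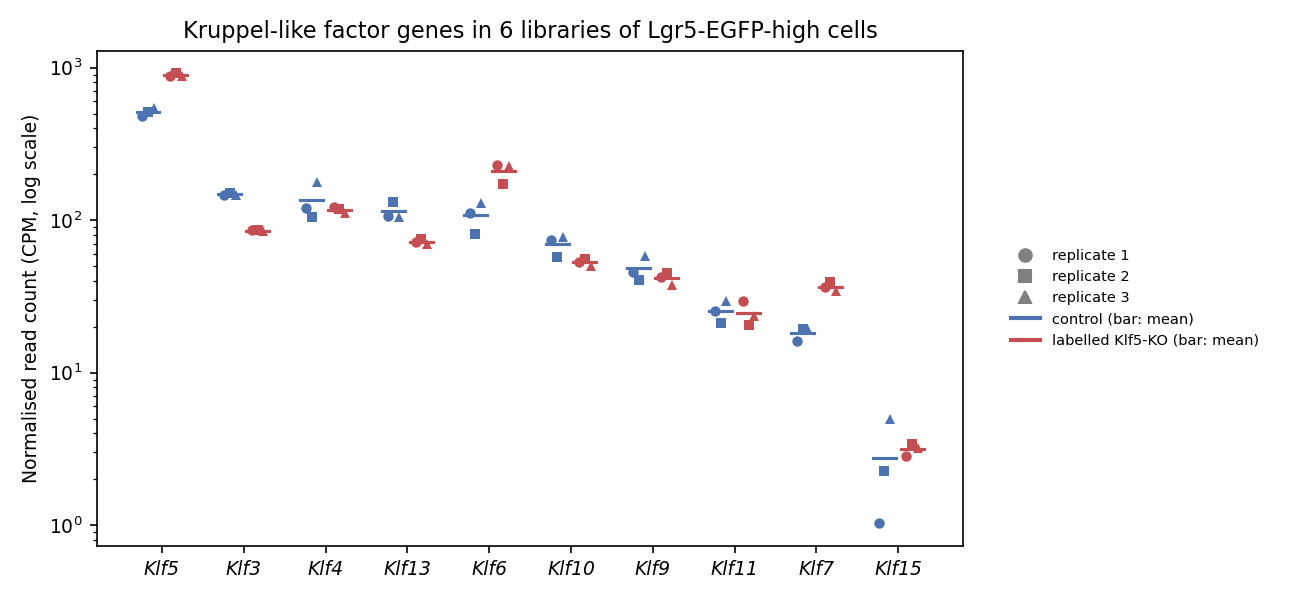
Normalised read counts (CPM, log axis) of the 10 Kruppel-like factor genes in the 3 control libraries (blue) and the 3 libraries labelled Klf5-KO (red); each symbol is 1 library and each bar a group mean, with the genes ordered by their control mean in CPM. Klf5, Klf6 and Klf7 lie higher and Klf3, Klf13 and Klf10 lower in the libraries labelled Klf5-KO with no overlap, and control replicate 3 (blue triangle) is the highest control for Klf4, Klf5, Klf6, Klf9, Klf10, Klf11 and Klf15.

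Klf5, the targeted gene, was more abundant where it was to have been deleted. It stood at 480, 512 and 547 CPM in control replicates 1, 2 and 3 and at 880, 918 and 877 CPM in those labelled Klf5-KO. All 3 of the latter lay far above the highest control. The log2 fold change was 0.80 (95% interval 0.57 to 1.02, adjusted p = 0.00063, edgeR). The direction thus goes against the label, and higher and lower here always describe the libraries with the Klf5-KO label, set against the controls. A deposited count sums the whole gene (ENSMUSG00000005148.8, on the plus strand of chromosome 14 from 99298691 to 99315036 in mm10). Its 4 exon blocks measure 532, 874, 1909 and 1886 bases, which are 10.2, 16.8, 36.7 and 36.3% of the counted length. Reads of a transcript that lacks some of these blocks would still be counted in the others, and the labels do not say which exons are floxed, so the counts do not test the deletion.

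Levels of different genes are set side by side only per length, as RPKM (CPM per kilobase of the exon length in the files). In the controls Klf5 was the most abundant of the 10 at 98.6 ± 6.37 RPKM (SD, n = 3), and Klf4 came second at 44.1 ± 12.8 RPKM, with no overlap between them. Klf6 followed at 24.5 ± 5.66 RPKM. Klf10, Klf13, Klf9 and Klf3 formed a plateau, at 16.7 ± 2.53, 15.2 ± 2.08, 14.8 ± 2.73 and 13.1 ± 0.29 RPKM. From Klf6 down to Klf3, each gene's range overlapped that of the next in this order. Klf11 (5.85 ± 0.95 RPKM), Klf7 (2.24 ± 0.21 RPKM) and Klf15 (0.98 ± 0.72 RPKM) were the lowest, and each was separate from its neighbours.

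The order was different in the libraries labelled Klf5-KO. Klf5 led at 171 ± 4.44 RPKM. This value divides by the full exon length, so it does not measure intact Klf5 if the transcript lacks some exon blocks. Klf6 (47.7 ± 7.50 RPKM) stood above Klf4 (38.3 ± 1.93 RPKM) in the mean, although their ranges overlapped. Klf3 was at 7.60 ± 0.09 RPKM, and Klf7 at 4.51 ± 0.29 RPKM overlapped Klf11 at 5.65 ± 1.01 RPKM. Klf15 remained the lowest at 1.13 ± 0.10 RPKM.

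Klf5 made up 41.1, 45.5 and 39.3% of the summed RPKM of the 10 genes in control replicates 1, 2 and 3, beside 53.4, 57.0 and 54.8% in the replicates labelled Klf5-KO. The share of Klf6 was 8.51 to 11.3% in the controls and 12.6 to 16.8% in the libraries labelled Klf5-KO. Shares of 1 whole are tied to each other, so a larger share of Klf5 lowers the others. The sum of the 9 genes without Klf5 was 137 ± 22.6 RPKM in the controls and 140 ± 7.36 RPKM in the libraries labelled Klf5-KO, a difference smaller than the spread between libraries. The ratio of Klf4 to Klf5, per length, was 0.429, 0.347 and 0.558 in the controls and 0.237, 0.218 and 0.215 in the libraries labelled Klf5-KO, without overlap. Exact permutation of 3 against 3 libraries cannot go below p = 0.10, so this ratio was not tested. The Klf5 shares and the ratio take in reads of any Klf5 transcript over the full exon length, whether or not it lacks some exon blocks.

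**Figure D2:**
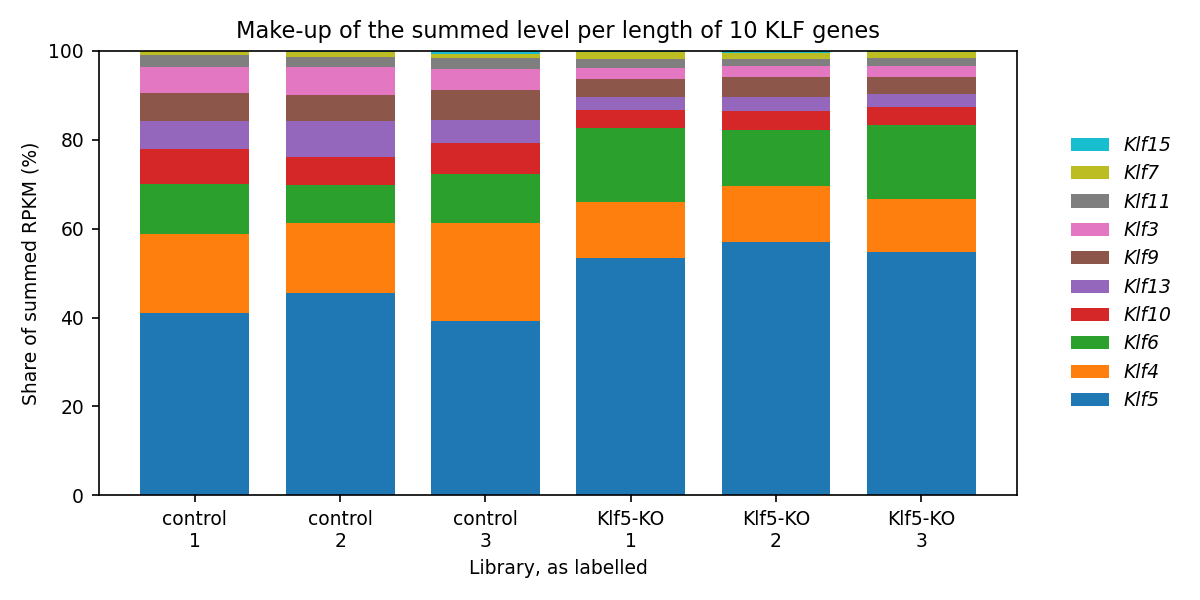
Share (%) that each of the 10 genes takes of their summed RPKM in each library; 1 bar is 1 library and the colours are genes. The Klf5 segment spans 39.3 to 45.5% in the controls and 53.4 to 57.0% in the libraries labelled Klf5-KO.

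Among the activators related to Klf5, Klf7 and Klf6 rose. Klf7, known for roles in neurons and fat cells, was at 16.2, 19.2 and 19.2 CPM in the controls and at 36.7, 39.0 and 34.3 CPM in those labelled Klf5-KO. The groups were far apart beside the spread within each, and the log2 fold change was 1.01 with an SE of 0.10 (adjusted p = 0.00020, edgeR), the largest of the 10. Klf6, a broadly expressed factor that is induced early after injury, was at 112, 80.8 and 130 CPM in the controls and at 229, 171 and 227 CPM in those labelled Klf5-KO. Replicate 2 was the lowest in both groups, and the lowest Klf5-KO value was still above the highest control. The log2 fold change was 0.96 with an SE of 0.17 (adjusted p = 0.0041, edgeR).

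Klf4 did not follow. It was at 121, 104 and 179 CPM in the controls and at 122, 117 and 111 CPM in those labelled Klf5-KO. The Klf5-KO values lay within the range of the controls, which was set at its top by control replicate 3. The log2 fold change was −0.20 (95% interval −0.59 to 0.18, adjusted p = 0.42, edgeR). Without control replicate 3 it was 0.054 (adjusted p = 0.68). The part that this library's Paneth cell transcripts play in the Klf4 value was not tested.

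Among the repressors, Klf3 gave the smallest adjusted p of the 10. Klf3, which silences genes through CtBP, was at 146, 152 and 145 CPM in the controls and at 86.5, 85.5 and 84.5 CPM in those labelled Klf5-KO. Both groups were tight, and Klf3 fell by 0.79 on the log2 scale (SE 0.07, adjusted p = 0.00013, edgeR). On the opposite strand, Gm20033 shares 404 exon bases with Klf3. It had 196, 258 and 229 counts in the controls and 125, 109 and 130 counts in the libraries labelled Klf5-KO, and it also fell (log2 fold change −0.87, adjusted p = 0.010, edgeR). The counting used strand, so the pair were counted apart.

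Klf13 and Klf10, of the Sin3A-binding class, fell. Klf13, known as a regulator of T cell and cholesterol genes, was at 106, 132 and 104 CPM in the controls and at 71.6, 75.5 and 69.6 CPM in those labelled Klf5-KO. The log2 fold change was −0.66 with an SE of 0.11 (adjusted p = 0.0021, edgeR). Klf10, an early response gene of TGF-beta signalling, was at 74.2, 57.6 and 77.2 CPM in the controls and at 53.3, 55.4 and 50.1 CPM in those labelled Klf5-KO. Control replicate 2 lay close to the highest Klf5-KO value, and the log2 fold change was −0.40 with an SE of 0.12 (adjusted p = 0.034, edgeR). The Klf10 call was the least secure: it was lost when control replicate 1 (adjusted p = 0.095), control replicate 3 (0.065) or any of the 3 Klf5-KO libraries (0.068 to 0.12) was left out.

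The other Sin3A-binding members and Klf15 were not called. Klf9, which responds to glucocorticoids and thyroid hormone, was at 45.9, 40.6 and 58.0 CPM in the controls and at 42.4, 44.8 and 37.8 CPM in those labelled Klf5-KO (log2 fold change −0.21, 95% interval −0.51 to 0.09, adjusted p = 0.28, edgeR). Klf11, the close paralog of Klf10, was at 25.4, 21.2 and 29.5 CPM and at 29.3, 20.6 and 23.6 CPM, with a log2 fold change of −0.05 (95% interval −0.40 to 0.30, adjusted p = 0.85, edgeR). Both groups covered much the same range. Klf15, a factor of fasting metabolism, was the scarcest, with 75 to 306 counts a library. It was at 1.03, 2.27 and 4.94 CPM in the controls, which differed among themselves more than from the other group, and at 2.85, 3.43 and 3.19 CPM in those labelled Klf5-KO. Its interval of −0.79 to 1.20 on the log2 scale is too wide to tell a fall from a rise by 2-fold (adjusted p = 0.77, edgeR). Its value rested on single controls: it was 0.93 (adjusted p = 0.057) without control replicate 3 and −0.19 (0.71) without control replicate 1. Klf9 was at −0.056 (0.71) without control replicate 3.

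**Figure D3:**
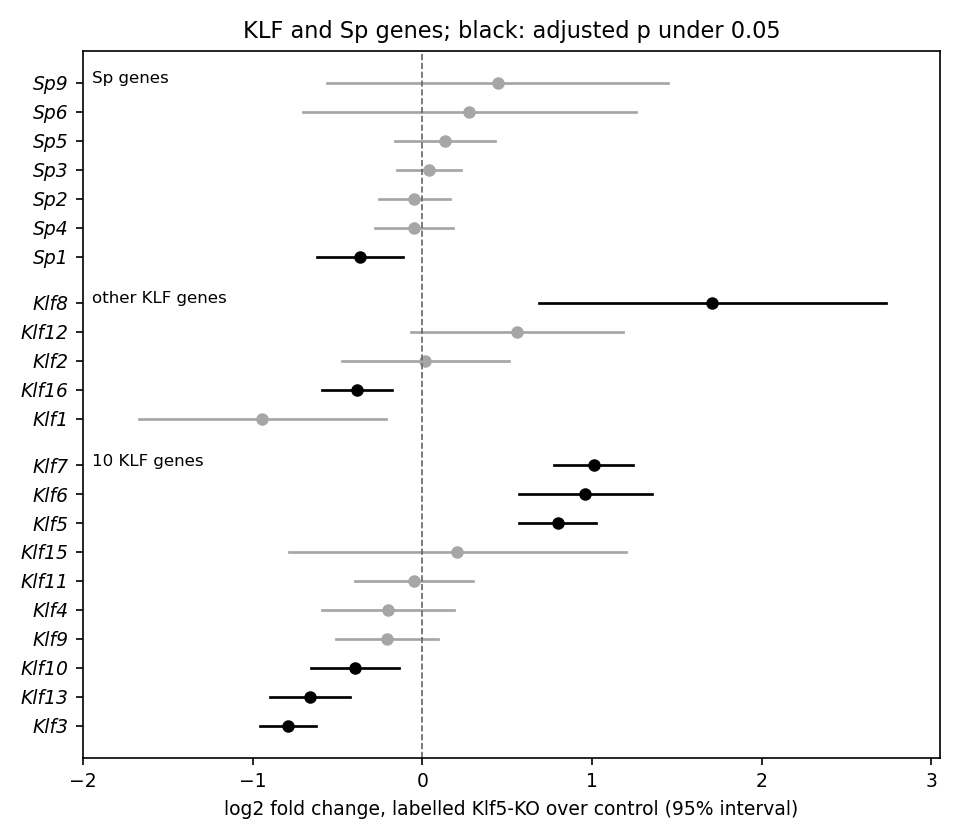
Log2 fold change of the libraries labelled Klf5-KO over control, with its 95% interval, for the 10 genes and for the other KLF and Sp genes that passed the filter; black marks an adjusted p under 0.05 and grey the rest. Klf5, Klf6 and Klf7 lie to the right of 0 and Klf3, Klf13 and Klf10 to the left, while every Sp gene drawn except Sp1 is grey.

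The rest of the family moved in both directions too. Of 7 further KLF genes, 5 were tested, and 1 was called higher and 1 lower. Klf16, a Sin3A-binding factor, went down from 39.8 ± 2.39 to 30.5 ± 2.17 CPM (log2 fold change −0.39, adjusted p = 0.015, edgeR). Klf8, a CtBP-binding factor, had only 7, 9 and 8 counts in the controls and 25, 36 and 15 in the libraries labelled Klf5-KO (log2 fold change 1.71, SE 0.46, adjusted p = 0.023, edgeR). Leaving out 1 library ended the call of Klf8 for 2 of the controls (replicate 1, adjusted p = 0.069, and replicate 2, 0.070) and for replicates 1 (0.067) and 2 (0.092) labelled Klf5-KO. It ended that of Klf16 for replicates 1 (0.066) and 3 (0.067) labelled Klf5-KO. By class, 3 of 6 tested activators were called higher and none lower, beside 13.3% of all genes tested called higher and 12.5% lower. Klf1, Klf2 and Klf4 were not called. Klf1 nevertheless lay lower without overlap, with 38, 37 and 49 counts in the controls and 23, 22 and 18 in the libraries labelled Klf5-KO. Its log2 fold change was −0.94 with an SE of 0.32 (adjusted p = 0.059, edgeR). Of 5 tested Sin3A-binding repressors, 3 were lower and none higher, and of 3 CtBP-binding repressors 1 was higher and 1 lower. The division into classes is textbook knowledge and was applied after the values were seen, so these counts are a description.

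Klf2, an activator of endothelium and lymphocytes, stood at 12.6 ± 4.56 CPM in control libraries and 12.7 ± 1.07 CPM in those labelled Klf5-KO (adjusted p = 0.96, edgeR). The Sp proteins bind the same GC boxes with similar fingers. Of 9 Sp genes, 7 were tested, and Sp1 alone was called, beside 25.8% of all genes tested. It fell from 133 ± 20.5 to 103 ± 2.63 CPM (log2 fold change −0.37, adjusted p = 0.039, edgeR). That call was lost when control replicate 1 (adjusted p = 0.095) or 2 (0.12) or any of the 3 Klf5-KO libraries (0.093 to 0.12) was left out. Sp3, at 86.5 ± 5.67 and 89.0 ± 3.50 CPM, had an interval of −0.15 to 0.23 on the log2 scale.

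Promoter sequence was examined for the members, since KLF and Sp proteins can bind the promoters of their own family. RefSeq (GRCm38.p6) promoter windows were matched for 8 of the 10, without Klf5 and Klf10. In the 250 bases before the start, the GC box GGGCGG, sought on both strands, was found in 7 of 8, against 32.7% of 32851 promoters, and CACCC, also on both strands, in 5 of 8 against 52.0%. Matches were not tested for binding. The bases upstream of both the RefSeq and the GENCODE start are shown for Klf6, which rose, for Klf3 and Klf13, which fell, and for Klf4, which was not called; capitals mark GGGCGG and CACCC on either strand, which overlap in places. The windows are chr13:5861239-5861481 (plus strand), chr5:64803271-64803387 (plus), chr7:63938916-63939165 (minus) and chr4:55532476-55532725 (minus).
Klf6: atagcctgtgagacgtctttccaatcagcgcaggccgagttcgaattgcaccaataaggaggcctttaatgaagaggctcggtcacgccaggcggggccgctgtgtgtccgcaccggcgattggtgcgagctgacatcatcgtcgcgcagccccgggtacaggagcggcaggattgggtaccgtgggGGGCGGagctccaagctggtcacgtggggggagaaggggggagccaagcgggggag
Klf3: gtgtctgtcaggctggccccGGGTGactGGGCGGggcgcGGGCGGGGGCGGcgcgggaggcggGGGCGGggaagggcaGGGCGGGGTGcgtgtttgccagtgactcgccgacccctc
Klf13: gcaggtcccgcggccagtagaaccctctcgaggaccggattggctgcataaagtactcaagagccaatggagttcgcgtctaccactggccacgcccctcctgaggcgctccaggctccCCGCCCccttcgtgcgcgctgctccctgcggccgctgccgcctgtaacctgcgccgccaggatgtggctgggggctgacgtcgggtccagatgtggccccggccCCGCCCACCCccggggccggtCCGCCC
Klf4: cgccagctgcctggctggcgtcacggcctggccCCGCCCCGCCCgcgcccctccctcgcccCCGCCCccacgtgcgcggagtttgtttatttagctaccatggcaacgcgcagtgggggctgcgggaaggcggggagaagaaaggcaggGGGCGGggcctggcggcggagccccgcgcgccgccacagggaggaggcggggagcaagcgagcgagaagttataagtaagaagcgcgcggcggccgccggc
Klf3 held 5 and Klf13 held 3 GC boxes in the bases shown, Klf6 held 1 and Klf4, which was not called, held 4. Klf7, which rose, held 1 in its 250 bases, but it is not shown because none of these bases lie upstream of both starts. Over 250 bases, Klf3 held 6, and Klf11, Klf15 and Klf9, which were not called, held 4, 1 and 0. The bases shown are 117 for Klf3 and 243 to 250 for the others, and the numbers of boxes were not tested against the changes.

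The genes around Klf5 were read from the same fit, because the locus was the one targeted. Of 6 protein-coding genes with any base within 1 Mb, 3 were called higher, against 13.3% of all genes tested, and 1 of the 3, Mzt1, lost its call when any 1 library was left out. Pibf1, a centrosomal protein gene and the nearest of them, was at 24.4, 19.5 and 19.1 CPM in the controls and at 38.9, 42.6 and 33.0 CPM in those labelled Klf5-KO. Its log2 fold change was 0.86 with an SE of 0.13 (adjusted p = 0.0017, edgeR), beside 0.80 for Klf5. Bora, which activates the mitotic kinase Aurora A, rose from 55.9 ± 5.41 to 74.2 ± 2.37 CPM (log2 fold change 0.41, adjusted p = 0.011, edgeR). Mzt1, of the gamma-tubulin ring complex, rose from 16.5 ± 2.65 to 21.6 ± 0.57 CPM, with an adjusted p of 0.049 (edgeR), which was 0.053 to 0.12 with 1 library left out. Dis3, of the RNA exosome, was at 85.0 ± 10.7 and 92.8 ± 8.54 CPM and was not called (adjusted p = 0.44, edgeR). The nearest relative in position, Klf12, was at 0.49, 0.79 and 0.66 CPM in the controls and at 0.89, 1.17 and 0.81 CPM in those labelled Klf5-KO; the groups were separate, but it was not called (adjusted p = 0.17, edgeR). Rpl36a-ps1 was at 0.54 ± 0.19 and 0.53 ± 0.30 CPM.

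**Figure D4:**
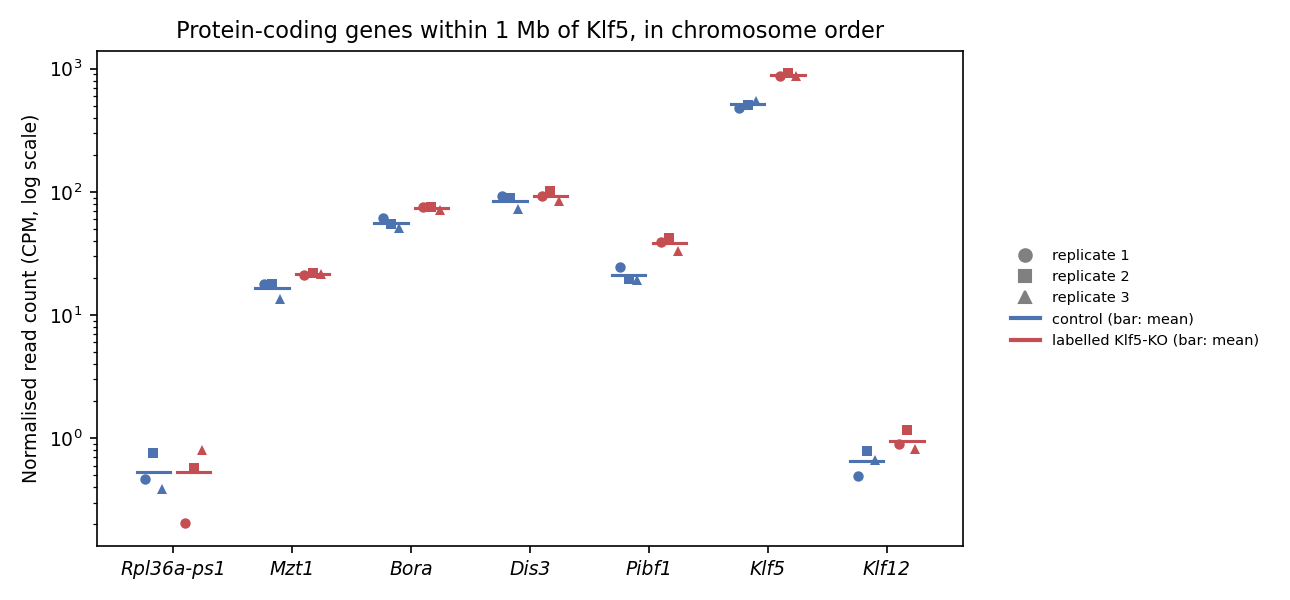
Normalised read counts (CPM, log axis) of Klf5 and the 6 protein-coding genes within 1 Mb of it, in chromosome order; each symbol is 1 library, bars are group means, blue is control and red is labelled Klf5-KO. Pibf1, Bora and Mzt1 are higher in the libraries labelled Klf5-KO, as is Klf5, and Dis3 and Rpl36a-ps1 overlap.

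Genes that act with or upon these factors were read against the 13.3% of all genes called higher and 12.5% called lower. Of 12 cofactor genes, among them the CtBP, Sin3, NCoR and p300 families, 1 was higher and none lower: the acetyltransferase gene Kat2b rose from 37.8 ± 1.77 to 47.2 ± 2.29 CPM (log2 fold change 0.32, adjusted p = 0.022, edgeR), a call lost without control replicate 2 (0.068) or the replicates 1 (0.071) or 3 (0.082) labelled Klf5-KO. Ctbp1 stood at 194 ± 8.18 and 184 ± 7.34 CPM and Sin3a at 143 ± 13.9 and 123 ± 11.5 CPM, and neither was called. Of 8 genes tied to turnover of the KLF5 protein, 1 was higher, the Hippo pathway coactivator gene Wwtr1, which went from 14.0 ± 0.81 to 27.5 ± 1.70 CPM (log2 fold change 0.98, adjusted p = 0.00018, edgeR). The ubiquitin ligase gene Wwp1, which marks KLF5 for destruction, was at 66.6 ± 6.49 and 67.8 ± 6.21 CPM (adjusted p = 0.88, edgeR). RNA counts do not measure the proteins.

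Genes known from textbooks as targets of KLF5 moved in both directions. Of 10, 3 were lower and 2 higher, with a median log2 fold change of 0.00. Over all genes tested, 12.5% were called lower and 13.3% higher, for this list and for the KLF4 targets below. Fgfbp1, a carrier of fibroblast growth factors, dropped from 52.9 ± 5.41 to 9.45 ± 1.71 CPM, a log2 fold change of −2.48 ± 0.15 (SE, adjusted p = 1.1e-05, edgeR). Ccnd1, the cyclin D1 gene, fell from 111 ± 29.3 to 32.3 ± 1.80 CPM (log2 fold change −1.78, adjusted p = 0.00017, edgeR). Myc, named with Cdk1 and Ilk after their values were seen, fell by 0.72 on the log2 scale, while the mitotic kinase gene Cdk1 and the integrin-linked kinase gene Ilk rose by 0.43 and 0.35. Of 8 KLF4 targets, 1 was higher and 2 lower. The higher was Lama3, a laminin gene, at 2.02 ± 0.41 and 6.02 ± 3.47 CPM (adjusted p = 0.013, edgeR), and the lower were Ccnd1, shared with the KLF5 list, and the keratin gene Krt4, which was below 1 CPM in the mean of either group and named after its values were seen. The cell cycle inhibitor gene Cdkn1a, a classical target of KLF4, stood at 30.6 ± 11.1 and 25.1 ± 2.46 CPM and was not called.

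Some members answer to outside signals, and genes of those signals were read beside them. Klf4, Klf6 and Klf10 can be induced as immediate early genes while tissue is dissociated. Of 20 immediate early genes, 2 were higher, Dusp6 and Nr4a1 (log2 fold changes 0.72 and 0.93, adjusted p = 0.014 and 0.040, edgeR), and none lower, against 13.3% of all genes higher. Their summed level was 4562, 4021 and 5961 CPM in control replicates 1, 2 and 3 and 5595, 4937 and 5623 CPM in those labelled Klf5-KO, so the groups overlapped. The Nr4a1 groups overlapped as well, and its call was lost in 9 of 18 alternatives. Among these were DESeq2 (adjusted p = 0.11), edgeR with robust dispersion (0.14) and edgeR with a filter on CPM above 1 (0.055). Others were the fits without control replicate 1 (0.098) or 2 (0.14) or replicate 1 (0.13) or 3 (0.096) labelled Klf5-KO. The Dusp6 call was lost without control replicate 2 (0.057) or replicate 1 (0.060) or 3 (0.052) labelled Klf5-KO. Klf6 had the same rank order of libraries within the controls as this sum, lowest in replicate 2 and highest in replicate 3, and was lowest in replicate 2 of the other group too. The part of dissociation in the Klf6 value was not tested.

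Klf9 and Klf15 are known to respond to glucocorticoids and to the clock. Of 13 genes of the glucocorticoid response, 2 were higher and 2 lower. Over all genes tested, the share was 13.3% higher and 12.5% lower, for this list and the lists below. Angptl4 rose by 1.16 and Hsd11b2, whose enzyme inactivates glucocorticoids, fell by 2.15 on the log2 scale (adjusted p = 0.0018 and 0.00013, edgeR). The other called genes, also named after their values were seen, were Pdk4 and the glucocorticoid receptor gene Nr3c1. Pdk4 was higher (log2 fold change 1.35, adjusted p = 0.0054, edgeR) and Nr3c1 lower (−0.36, adjusted p = 0.024, edgeR). Fkbp5, Tsc22d3, Per1 and Sgk1, named after their values were seen, were not called (log2 fold changes 0.12, 0.09, −0.07 and 0.26). Of 15 tested clock genes, 2 were higher, Clock (log2 fold change 0.49, adjusted p = 0.0050, edgeR) and Hlf (1.14, adjusted p = 0.018, edgeR, at 0.50 ± 0.13 and 1.10 ± 0.19 CPM). The Hlf call was lost without replicate 1 (0.067) or 2 (0.053) labelled Klf5-KO. Of 13 genes tied to TGF-beta signalling, 2 were higher and 1 lower: the receptor gene Tgfbr2 rose by 0.36, and Tgfbi, an induced matrix gene, fell by 0.81 on the log2 scale (adjusted p = 0.014 and 0.0080, edgeR). The Tgfbr2 call was lost without replicate 1 (0.050) or 3 (0.053) labelled Klf5-KO. The other higher gene was Ccn2, named after its value was seen.

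Markers of the cells that derive from the stem cell also differed between the groups, and they are given here because Klf4 is itself expressed in differentiated cells. The counts of markers below stand beside 13.3% of all genes tested called higher and 12.5% called lower. Of 10 stem cell markers, 7 were lower and none higher, Lgr5 and Ascl2 among them, with a sum of 8611 to 11807 CPM in the controls and 4332 to 5785 CPM in those labelled Klf5-KO. Of 8 general epithelial markers, 4 were lower and 1 higher. Of 12 enterocyte markers, 7 were higher and none lower, with a sum of 1371 to 1731 CPM in the controls and 2570 to 4262 CPM in those labelled Klf5-KO. Of 10 goblet cell markers, 4 were lower and none higher, with sums of 2440 to 2714 and 1244 to 1590 CPM. Of 10 tuft cell markers, 6 were higher, with sums of 107 to 135 and 158 to 281 CPM. Of 12 enteroendocrine markers, 9 were lower, with sums of 164 to 326 and 94.5 to 105 CPM. Of 10 Paneth cell markers none was called, with the controls far apart. Their sum was 1783, 2266 and 21352 CPM in control replicates 1, 2 and 3, and 9902 to 12251 CPM in those labelled Klf5-KO. Among immune, endothelial, mesenchymal and erythrocyte genes 9, 3, 5 and 1 passed the filter; 1 endothelial and 3 mesenchymal genes were lower and 1 mesenchymal gene higher. No marker of these lists was at 0 in all libraries, and the part of these cells in the KLF values was not tested.

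The genes most like a member in their pattern were sought among 10161 protein-coding genes whose mean reached 5 CPM, by the root mean square difference of log2 CPM, centred on each gene's mean, over the 6 libraries. For Klf5 they were Entpd7, an ectonucleotidase gene (difference 0.04), Amacr, of branched fatty acid oxidation (0.06), and Hopx, an atypical homeodomain gene (0.06). For Klf7 they included Ppp2r5b (0.05) and Ptpn2 (0.09), and for Klf6 they were Ptprh (0.09), Ypel2 (0.10) and Themis3 (0.10). Entpd7 was at 50.6 ± 3.29 CPM in control libraries and 86.6 ± 5.90 CPM in those labelled Klf5-KO. The measure is set largely by the difference between the groups, which many genes share.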

How the data were processed

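RNA was sequenced from 6 libraries, 3 per group, and the deposited files hold whole read counts for each gene. Reverse-strand counting by the authors used featureCounts 1.4.3-p1 and GENCODE vM16, per the file headers; per the submitters' processing notes, STAR 2.5.2a and mm10 were used and DESeq2 1.18.1 is named. The command shows no option for read pairs or reads that map to several places. Symbols came from GENCODE vM21 (53274 of 53379 IDs matched).

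The test was that of edgeR 4.0.16, run in R 4.3.3 (filterByExpr, TMM, quasi-likelihood F test, group as the only term). Log2 fold changes have SE equal to their size over the square root of F and 95% intervals. RPKM divides TMM-scaled CPM by the exon length in the files. In counts simulated from the means and dispersions of these data, every known change that the code called had the right sign. Such counts follow the model of the test, so they check the code and not the model. The members and gene lists were chosen with earlier results of these data known. The members were named in full; other genes were named as up to 2 called genes with the smallest adjusted p per list, or were chosen after their values were seen (Klf2, Sp3, Ctbp1, Sin3a, Wwp1 and Cdkn1a, and where stated). Alternatives were other scalings, filters and thresholds, DESeq2 1.42.0, limma-voom (limma 3.58.1), robust dispersion, a replicate block and leaving out libraries. Libraries of 1 group all differed beyond sampling noise (lowest chi-square over its degrees of freedom 40.3). The limit set by 0 counts (3 counts) is 0.039 to 0.048 CPM. The genes Gm26917 and Gm42418 took 13.5 to 18.3% of the counts. The main fit did not pair the libraries by replicate number. Cell type marker lists are given by counts and sums, and their genes that the rule selects are not named, except Ascl2. A gene with a pattern like that of Klf7 is not reported here.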

Additional observations from a re-analysis of the deposited data

How the results depend on the processing

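Klf3, Klf5, Klf6, Klf7 and Klf13 kept their direction and call in all 18 alternatives, with log2 fold changes of −0.81 to −0.77, 0.75 to 0.84, 0.79 to 1.25, 0.93 to 1.06 and −0.75 to −0.54. Klf10 kept its direction and lost its call in 9 of 18. Members called higher stayed at 3 throughout, and members called lower were 2 or 3. Among uncalled members, Klf4 ranged from −0.36 to 0.054 with 1 library left out, turning to 0.054 without control replicate 3 and to 0.058 without control replicate 3 and Klf5-KO replicate 2. Klf11 turned to 0.073 without control replicate 3, to 0.081 without Klf5-KO replicate 2 and to 0.19 without both, and Klf15 went from 0.21 to 0.93 without control replicate 3 (adjusted p = 0.057) and turned to −0.19 without control replicate 1, also where Klf5-KO replicate 3 was left out with it (−0.19); the cause was not tested. Over all genes, 2581 were higher and 2413 lower; at an adjusted p under 0.01 these were 1226 and 1118, and without control replicate 1 and Klf5-KO replicate 3, the 2 libraries high in Y-linked transcripts, 1364 and 1157. Leaving out 1 library gave 1605 to 2740 higher and 1467 to 2664 lower. The lowest of each was without Klf5-KO replicate 1; the higher count also moved by over 1.5 times without control replicate 2 (1689), and the lower count without Klf5-KO replicates 2 (1606) and 3 (1526). The mean ratio of Klf4 to Klf5 was 0.388 to 0.493 in the controls and 0.217 to 0.228 in the libraries labelled Klf5-KO with 1 library left out. With the longer gene model of GENCODE vM21, Klf9 in the controls was 10.01 in place of 14.8 RPKM.

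Same-numbered libraries did not deviate together over the genes as a whole (correlations of −0.06, 0.04 and −0.06 over 13751 genes). With 3 libraries per group, these correlations cannot decide whether the numbers pair the libraries. With the replicate block, 2286 genes were higher and 2088 lower, and 3 members were higher and 2 lower. The adjusted p of Klf10 was then 0.056 (edgeR), and the SE of Klf6 was 0.089 in place of 0.17.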
